A study of Homo sapiens and Mus musculus with 13 samples.

Results

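The K562 DRIP-seq peak list holds 51445 peaks, and 426 of them lie on sequences that hg19 does not place on an assembled chromosome. They were chosen by sequence name alone: 298 peaks are on 27 unplaced sequences, whose names start with chrUn, and 128 peaks are on 9 unlocalized sequences, whose names end with random and whose parent chromosome is known. They make up 0.828% of the K562 peaks and 0.733% of the length they cover.

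K562 is an established erythromyeloid leukaemia line from human, the labels name no treatment for it, and its list comes from 1 sample. DRIP-seq maps RNA:DNA hybrids: DNA fragmented with restriction enzymes, here HindIII, EcoRI, BsrGI, XbaI and SspI, is pulled down with an antibody against hybrids and its DNA is read without strand. The series holds 9 peak lists, 6 from the human lines K562 and NT2 and 3 from the mouse lines E14 and 3T3, with 454693 peaks in all. The 5 NT2 lists have no peak on an unplaced, unlocalized, haplotype or mitochondrial sequence, so the values below come from K562 alone. The K562 list has 1 mitochondrial peak. Whether the NT2 cells or the making of their lists left these sequences empty was not tested. No K562 sample treated with RNase H, the enzyme that removes RNA from hybrids, was analysed here.

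An R-loop is an RNA strand paired with its DNA template, with the other DNA strand left single. R-loops form behind transcribing polymerases, and the genes for ribosomal RNA, which RNA polymerase I transcribes at a very high rate from many tandem copies, are among their classic sites. Many sequences that an assembly cannot place are made of repeats, satellite or duplicated DNA, and reads from many genomic copies can be assigned to a single one of them. No label or header states how the authors treated reads with several possible positions. The list gives start and end only, with no height, fold or p-value, no input library and no read depth, so a difference in copy number and a difference in hybrids per copy cannot be told apart.

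No genome sequence of hg19 was used, so no bases are shown, and no length of a sequence was used either. Each extent below runs from base 1 to the end of the last peak, which makes every covered share an upper limit. Positions are those of the list on hg19, read as counted from 1 with both ends included. Peaks of 1 library are not replicates, so no p-value is given. Intervals are exact Clopper-Pearson 95% intervals and cover counting error only.

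Peaks on these sequences were shorter and lay closer together than peaks on the chromosomes. Their median length was 920 bp (quartiles 414 and 2196 bp), against 1364 bp (620 and 2840 bp) for the 50482 peaks on chromosomes 1 to 22, X and Y, a ratio of 0.67. The gap between neighbouring peaks had a median of 1141 bp over 390 pairs, against 3257 bp over 50458 pairs on the chromosomes, a ratio of 0.35. By chromosome the median gap ran from 1126 bp on chromosome Y and 1318 bp on chromosome 19 to 11673 bp on chromosome 13. A gap cannot be longer than its sequence, so short sequences limit the gaps in a way that chromosomes do not. Of the neighbouring pairs, 46.7% were less than 1 kb apart on the unplaced and unlocalized sequences and 29.8% on the chromosomes. The median gap was 1083 bp on the unplaced and 1305 bp on the unlocalized sequences. On the unlocalized sequences the close spacing depended largely on chr9_gl000199_random. Without it their median gap was 2380 bp, a ratio of 0.73 to the chromosomes, and 33.3% of pairs were less than 1 kb apart.

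The shift in length was clearest in the share of short peaks, though the upper quartile was also lower, at 2196 against 2840 bp. Peaks under 500 bp numbered 127 of 426, or 29.8% (25.5 to 34.4%), against a background of 19.6% over all K562 peaks. Peaks of at least 10 kb numbered 10, or 2.35% (1.13 to 4.27%), against 2.57% over all K562 peaks, a share near the background. Peaks of at least 5 kb were 8.45% (5.99 to 11.5%), against 10.8% over all K562 peaks.

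**Figure D1:**
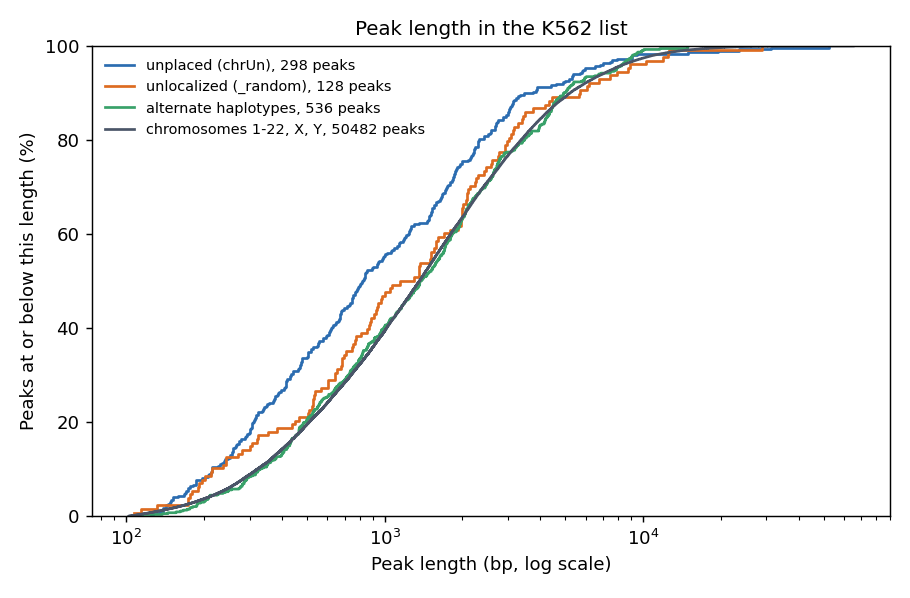
Cumulative share of K562 peaks (vertical axis, %) by peak length (horizontal axis, bp, log scale) for unplaced sequences, unlocalized sequences, alternate haplotypes and chromosomes. The unplaced curve lies left of the others over most of the range, with a median of 823 bp against 1364 bp on the chromosomes, and the curves lie close together at 10 kb.

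The median length was lower on the unplaced than on the unlocalized sequences, by an amount that depended on 1 sequence. The unplaced peaks had a median of 823 bp and 33.6% (28.2 to 39.2%) of them were under 500 bp. Unlocalized peaks had a median of 1222 bp and 21.1% (14.4 to 29.2%) were under 500 bp, an interval that holds the background of 19.6%. Without chr9_gl000199_random the other 95 unlocalized peaks had a median of 943 bp, a ratio of 0.69 to the chromosomes, against 0.90 with it. Of these 95 peaks, 21.1% (13.4 to 30.6%) were under 500 bp and 5.26% (1.73 to 11.9%) were at least 5 kb. Peaks on the 9 alternate haplotype sequences of the same list, 536 in number, had a median of 1378 bp, close to that of the chromosomes. Their gaps had a median of 4245 bp, so that neither the short peaks nor the close spacing was seen on the haplotypes.

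Cover was dense and very uneven. The 426 peaks covered 867.9 kb of a summed extent of 3.61 Mb, or 24.1%, against 3.76% of the extent of the chromosomes and 3.51% of that of the haplotypes. In peaks per Mb of extent the values were 118 on the unplaced and unlocalized sequences, 16.3 on the chromosomes and 16.1 on the haplotypes. Sequences with no peak do not appear in the list, and the extent of a chromosome includes the gaps of the assembly, so both differences work towards a higher share on the unplaced and unlocalized sequences.

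Set beside windows of 150 kb of the chromosomes, dense cover was still more frequent, though the sequences were few. Of the 15 sequences with an extent of at least 100 kb, 4 (26.7%) were at least 50% covered. Their extents ran from 103 to 546 kb, so not all were of the size of a window. On the chromosomes cut into windows of 150 kb, measured the same way up to the last peak of the window, 5.53% of 4881 windows reached 50%. The median share was 29.2% (quartiles 17.8 and 46.9%) for the 15 sequences and 7.73% (2.91 and 19.8%) for the windows. The lowest of the 15 sequences, at 0.560%, was inside the range of the windows, and so was the highest, at 68.6%, since the windows reached 98.6%.

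**Figure D2:**
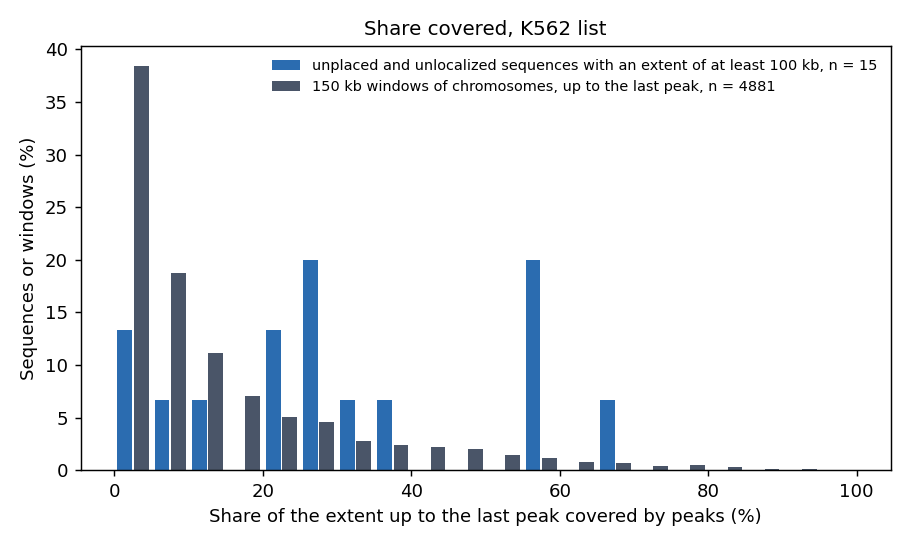
Share of the extent covered by K562 peaks (horizontal axis, %, bins of 5) for the 15 unplaced and unlocalized sequences of at least 100 kb and for 4881 windows of chromosomes (vertical axis, % of sequences or windows). The sequences are spread from under 1% to 68.6%, with 4 above 50%, while 5.53% of windows are above 50%.

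A few sequences held most of the cover. The 4 with the most covered length, chr9_gl000199_random, chrUn_gl000225, chrUn_gl000216 and chrUn_gl000220, held 148 of the 426 peaks and 48.5% of the covered length. The first 10 held 279 peaks and 77.5% of the length. The other 26 sequences held 147 peaks and 195 kb, or 22.5%. Covered shares ranged from 0.560% on chr1_gl000192_random to the whole extent of chrUn_gl000226, which had 1 peak. Of 36 sequences, 16 exceeded 22.3%, the value of chromosome 19, which was the highest among chromosomes. An extent that ends at the last peak can raise the share of a short sequence with few peaks. Among the 16 are chrUn_gl000226 and chrUn_gl000235, the latter with 2 peaks in an extent of 1.80 kb. At the other end, 6 sequences were below the pooled share of the chromosomes.

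**Figure D3:**
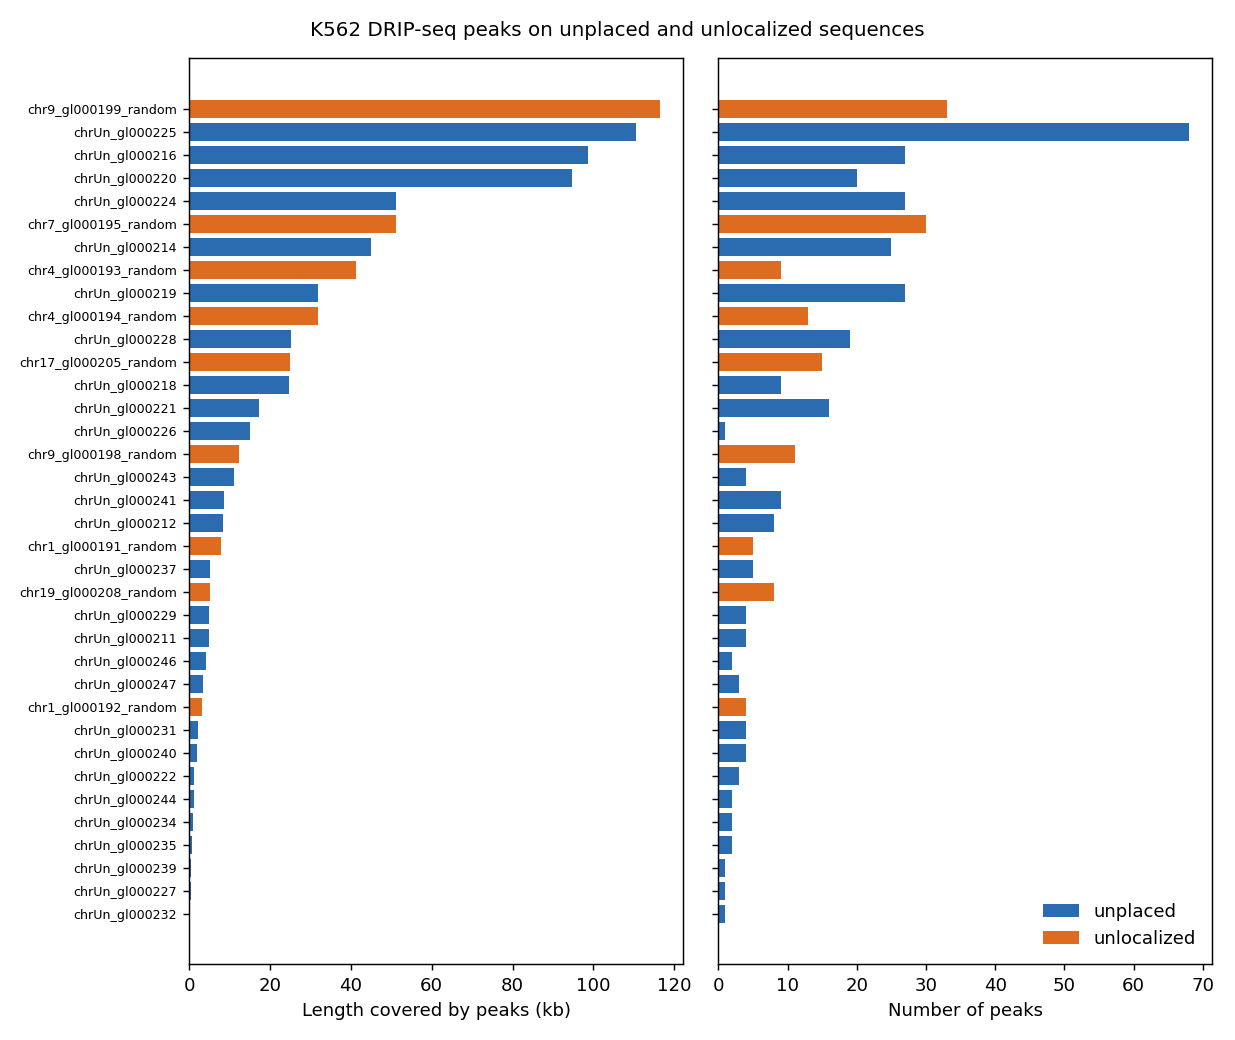
Length covered by K562 peaks (left, kb) and number of peaks (right) for each of the 36 unplaced or unlocalized sequences, ordered by covered length. chr9_gl000199_random leads by length with 116.5 kb, and chrUn_gl000225 leads by number with 68 peaks.

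The ribosomal DNA contig, chrUn_gl000220, carried the longest peak of all 426. This contig holds a copy of the transcription unit that gives the 18S, 5.8S and 28S ribosomal RNAs, with the spacer DNA that separates neighbouring units. Its 20 peaks covered 94.8 kb, 58.6% of an extent of 161.8 kb. A single peak from 99954 to 152575, of 52.6 kb, made up 55.5% of that cover and was the fourth longest of the whole K562 list, at rank 4 of 51445.

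The long peak was flanked on both sides at very short distance. A peak of 6536 bp, from 93275 to 99810, ended 143 bp before it, and a peak of 9071 bp, from 152731 to 161801, began 155 bp after it and was the last of the contig. With peaks within 1 kb merged, these 3 formed a block of 68.5 kb that was 99.6% covered. The block held 72.0% of the cover of the contig.

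Before position 93275 the contig looked different, with 17 separate peaks that covered 26.6 kb, or 28.5% of that stretch. Their median length was 770 bp. The longest of them, 7002 bp from 63678 to 70679, opened a group between 63678 and 86074 with peaks of 1490 bp from 71047, 2199 bp from 73402, 4998 bp from 77047, 430 bp from 82237, 413 bp from 83894 and 600 bp from 85475. Between this group and the block stood 1 peak of 610 bp, from 91296 to 91905.

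The stretch up to 60605 held the sparsest peaks. The largest was 2574 bp from 21786 to 24359, with a neighbour of 770 bp from 24818 to 25587. Peaks of 1512 bp from 2878, 747 bp from 13761, 1487 bp from 33230 and 1134 bp from 59472 stood apart from each other. The remaining 3 were short, with 145 bp from 8087, 341 bp from 43456 and 148 bp from 50645. The table of RefSeq genes used here is on GRCh38.p14, where RNA45SN5, RNA18SN5, RNA5-8SN5 and RNA28SN5, the genes of 1 ribosomal unit, are listed without a chromosome. It does not name their sequence, so no peak was assigned to a gene.

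Values for the whole group were close without this contig. Without chrUn_gl000220 the other 406 peaks covered 773 kb, or 22.4% of their extent, with a median length of 907 bp and 9 peaks of at least 10 kb (2.22%).

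**Figure D4:**
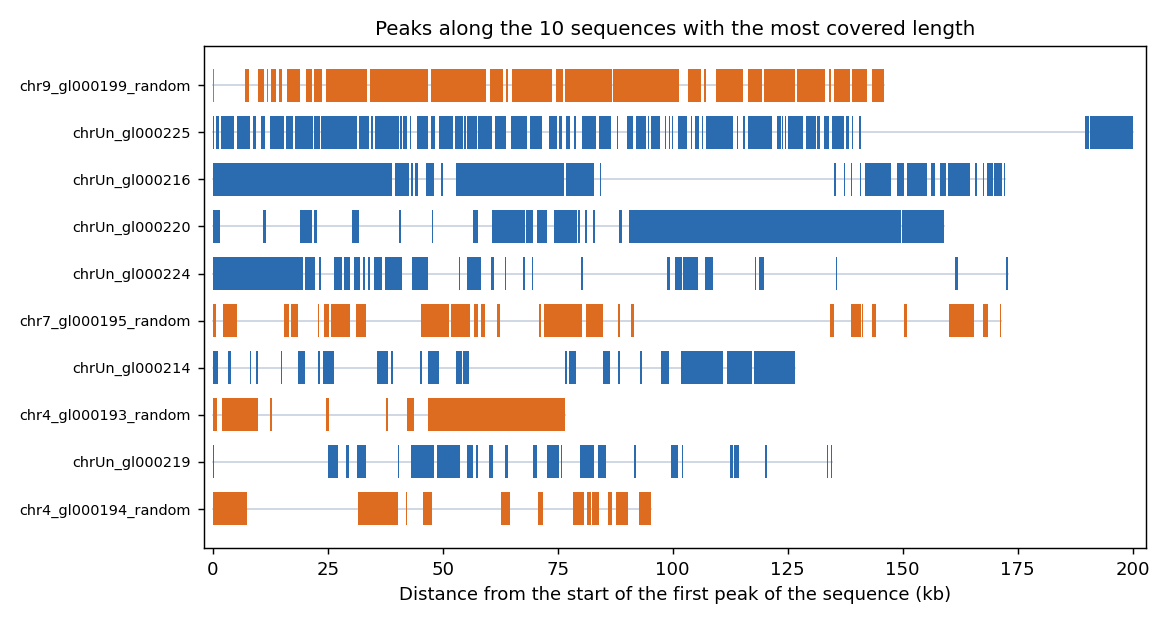
Peaks (blocks) along the 10 unplaced (blue) or unlocalized (orange) sequences with the most covered length, by distance in kb from the start of the first peak of each sequence. chrUn_gl000220 shows scattered peaks followed by a nearly unbroken block of 68.5 kb, while chr9_gl000199_random and chrUn_gl000225 show many separate peaks.

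The other long peaks sat on 5 sequences. chrUn_gl000216 had a pair, of 31.4 kb from 7596 to 39021 and of 23.5 kb from 52875 to 76417. On chr4_gl000193_random, 1 peak of 28.8 kb from 77282 to 106060 supplied 69.6% of the cover. The first 19.6 kb of chrUn_gl000224, from 1 to 19572, formed 1 peak.

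On chrUn_gl000226, the only peak ran from 1 to 15001, the whole extent of the sequence in this list. chr9_gl000199_random had 4 peaks of at least 10 kb, of 12.6 kb from 58276 to 70883, 12.5 kb from 112846 to 125331, 11.9 kb from 71447 to 83382 and 10.2 kb from 100584 to 110813. Together the 10 peaks of at least 10 kb covered 218 kb, 25.1% of the covered length. Just below this length were 9456 bp on chrUn_gl000225, 9071 bp on chrUn_gl000220 and 9063 bp on chrUn_gl000214, each of them the last peak of its sequence.

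Long stretches of cover were built in different ways on different sequences. On chr9_gl000199_random, 33 peaks with a median of 1785 bp covered 116.5 kb, 68.6% of the extent. Its peaks were separated by gaps with a median of 717 bp and none above 6.56 kb. With peaks within 1 kb merged they formed 9 regions, and the longest, from 48669 to 125331, spanned 76.7 kb and was the longest of any unplaced or unlocalized sequence. Regions this long were not particular to these sequences. The same merging gave longer ones on some chromosomes, with 83.8 kb on chromosome 9, its parent, and 151.1 kb on chromosome 16. The block of chrUn_gl000220 was also shorter than both. On other chromosomes the longest region was shorter, with 14.1 kb on chromosome 18.

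chrUn_gl000225 had the most peaks, 68, with a median of 866 bp, and they covered 110.6 kb or 55.2% of the extent. From its first base to 140914, 65 peaks covered 100.2 kb. A gap of 48.4 kb followed, and the last 3 peaks covered 10.4 kb from 189321 to 200133. No peak of this sequence reached 10 kb, a length reached by 2.57% of all K562 peaks. Of the 68 peaks, 22 were under 500 bp, against a background of 19.6% over all K562 peaks.

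chrUn_gl000216 was also split by a gap, of 50.7 kb. Before it 11 peaks covered 75.4 kb, most of it in the pair of long peaks, and after it 16 peaks covered 23.4 kb. The sequence was 57.3% covered in all, with a median peak of 805 bp. Its first peak, from 1 to 7595, touched the peak of 31.4 kb with no base between them, and the region merged within 1 kb ran from 1 to 44701.

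The next sequences by cover were less dense. chrUn_gl000224 had 27 peaks over 51.2 kb (29.6%), with the long peak at its first base and 2 short peaks after a gap of 25.6 kb at its end. chr7_gl000195_random had 30 peaks over 51.0 kb (29.2%) and none above 6077 bp. On chrUn_gl000214, 25 peaks covered 44.9 kb (32.6%), and the last 24.9 kb of the extent, from 112827 to 137711, formed its longest merged region.

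chr4_gl000193_random had 9 peaks over 41.4 kb (38.6%), chrUn_gl000219 had 27 peaks over 31.9 kb (20.8%) and chr4_gl000194_random had 13 peaks over 31.8 kb (27.3%). The median peak was 778 bp on chrUn_gl000219, where the longest was 4897 bp, and 1992 bp on chr4_gl000194_random. The longest peak held 69.6% of the cover on chr4_gl000193_random, 15.3% on chrUn_gl000219 and 24.9% on chr4_gl000194_random.

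Across the 16 sequences with at least 9 peaks, which held 358 of the 426, the median length ran from 522 bp on chr9_gl000198_random to 2185 bp on chrUn_gl000218. It was below the 1364 bp of the chromosomes on 12 of the 16. Chromosome medians themselves ran from 407 bp on chromosome Y, which had 230 peaks, to 2065 bp on chromosome 19. The next lowest after chromosome Y was 1001 bp, on chromosome 13. Giving each sequence equal weight, the median of the sequence medians was 799 bp, against 1295 bp for the 24 chromosomes.

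Peaks at the first base of a sequence were found on 7 of the 36 sequences, chr19_gl000208_random, chr9_gl000198_random, chrUn_gl000216, chrUn_gl000224, chrUn_gl000225, chrUn_gl000226 and chrUn_gl000241. No chromosome and no haplotype had a peak there, and the smallest start on a chromosome was 9960. Chromosomes of the assembly mostly begin with unsequenced bases, where no read can be placed, so most of them could have no peak there. Whether this also holds for the haplotypes was not tested. Peak lengths at the first base varied widely, with 231 bp on chrUn_gl000225 and 304 bp on chrUn_gl000241 at the low end and 19572 bp on chrUn_gl000224 at the high end. A peak that begins at the first base may be cut off by the end of the sequence, so its length is a lower limit. The last peak of a sequence may be cut off in the same way, which was not tested because no sequence length was used.

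The 9 unlocalized sequences belong to 6 parent chromosomes, which allows each to be set beside its own chromosome in the same list. Covered share was above that of the parent on 7 of the 9 and below it on 2, while median length was above on 4 and below on 5. In peaks per Mb of extent, 8 of the 9 were above the parent.

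Chromosome 4 showed the highest ratios of covered share. chr4_gl000193_random was 38.6% covered and chr4_gl000194_random 27.3%, against 1.42% of chromosome 4, which are ratios of 27.1 and 19.2. These ratios set extents of 107 and 117 kb against 191044 kb of chromosome 4, not against stretches of like size. Chromosome 4 also held the longest peak of the K562 list, of 65.7 kb. Peak lengths ran from 504 to 28779 bp on chr4_gl000193_random and from 270 to 7924 bp on chr4_gl000194_random. Their medians of 1002 and 1992 bp lay on either side of the 1133 bp of chromosome 4.

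The pair from chromosome 9 differed from each other. chr9_gl000199_random was 68.6% covered and chr9_gl000198_random 14.2%, against 3.81% of chromosome 9. Lengths ran from 114 to 12608 bp on chr9_gl000199_random, with a median of 1785 bp. On chr9_gl000198_random they ran from 132 to 4321 bp, with a median of 522 bp, against 1419 bp on chromosome 9.

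Chromosome 1 gave a sequence on each side. chr1_gl000191_random had 5 peaks of 773 to 2255 bp and was 15.1% covered, and chr1_gl000192_random had 4 peaks of 244 to 1511 bp and was 0.560% covered, against 5.40% of chromosome 1. The last peak of chr1_gl000192_random ended at 545604, the largest extent of the 36 sequences, and a gap of 465 kb without a peak lay within it. Without this sequence the unlocalized group was 30.1% covered, against 19.4% with it, and without chr9_gl000199_random it was 13.2%.

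On chr7_gl000195_random the share was 29.2%, against 5.16% of chromosome 7, with lengths from 191 to 6077 bp. chr17_gl000205_random, with 15 peaks of 244 to 4449 bp, was 14.9% covered, against 10.02% of chromosome 17, and its median of 1613 bp was close to the 1569 bp of that chromosome. On chr19_gl000208_random the share was below the parent, with 8 peaks of 107 to 3039 bp that covered 5.44%, against 22.3% of chromosome 19. Its number of peaks was not, with 86.4 per Mb of extent against 63.5 on chromosome 19. The median length of chr19_gl000208_random, 204.5 bp, was the lowest of the 36 sequences, against 2065 bp on chromosome 19.

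**Figure D5:**
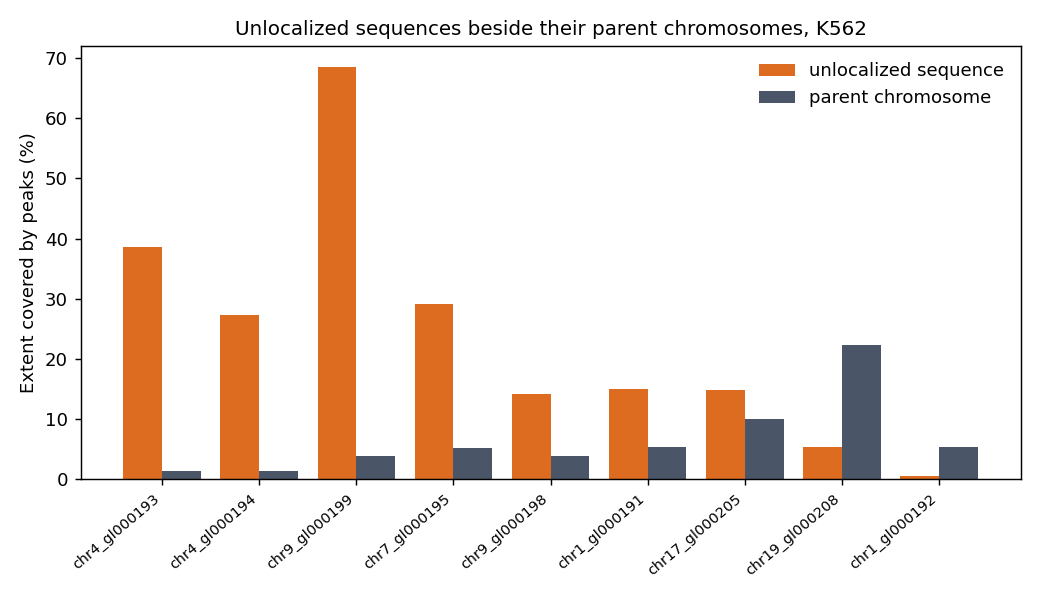
Share of the extent covered by K562 peaks (vertical axis, %) for each of the 9 unlocalized sequences (left bar of each pair) and for its parent chromosome (right bar), ordered by the ratio. The sequence is above its parent in 7 pairs, and chr19_gl000208_random and chr1_gl000192_random are below theirs.

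The remaining sequences held few peaks or little cover. chrUn_gl000228 had 19 peaks over 25.3 kb (21.0%), chrUn_gl000218 had 9 over 24.6 kb (24.8%), chrUn_gl000221 had 16 over 17.3 kb (20.9%), chrUn_gl000243 had 4 over 11.1 kb (28.3%), chrUn_gl000241 had 9 over 8.72 kb (22.4%) and chrUn_gl000212 had 8 over 8.23 kb (5.17%). On chrUn_gl000218 a stretch from 35126 to 46999 held its longest merged region, of 11.9 kb. chrUn_gl000237 had 5 peaks, and chrUn_gl000229, chrUn_gl000211, chrUn_gl000231 and chrUn_gl000240 had 4 each, with covers between 1.90 kb on chrUn_gl000240 and 5.07 kb on chrUn_gl000237. chrUn_gl000247 and chrUn_gl000222 had 3 peaks each, and chrUn_gl000246, chrUn_gl000244, chrUn_gl000234 and chrUn_gl000235 had 2 each. Their covers were between 0.648 kb on chrUn_gl000235 and 4.21 kb on chrUn_gl000246.

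A single peak was listed on 4 sequences. That of chrUn_gl000226 covered its whole extent, as given above. The others were short, with 517 bp on chrUn_gl000239, 414 bp on chrUn_gl000227 and 248 bp on chrUn_gl000232.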

How the data were processed

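The authors deposited the K562 peaks as start and end positions with no header, value or strand. Bismark 0.7.7, TopHat2 2.0.5 and BWA 0.6.1 appear in the submitters' processing notes with no role, and so do the builds hg19, mm9 and GRCh37. Which peak caller, threshold and control the authors used is not stated there, and the depth is unknown.

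In the K562 list 2601 neighbouring peaks differ by exactly 1 between an end and the next start, 33 pairs have a gap of 1 to 3 bases, no peaks overlap and the smallest start is 1. Positions were therefore read as counted from 1 with both ends included, and each may be off by 1 base. Peaks were grouped by sequence name, and length, gaps, extent and cover were computed with Python 3.11.15, pandas 2.3.3, numpy 2.4.6 and scipy 1.17.1, with figures from matplotlib 3.10.9. Bedtools 2.31.1 returned an equal covered length, and the functions were tested on simulated peaks. There is 1 sample and no test. Sequences named are the 10 with the most cover, all peaks of chrUn_gl000220, the 10 longest peaks and the length range of each unlocalized sequence, with the others given by number and cover. The members, rules and alternatives were chosen with earlier results of these data known, and the windows of 150 kb were added after the data were examined.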

Additional observations from a re-analysis of the deposited data

How the results depend on the processing

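Results were recomputed with other settings. A median ratio or a share of long peaks was taken as moved when it left its 95% binomial interval, and other values when they changed by more than 1.5 times. With peaks within 1 kb merged, the 426 peaks became 244 regions, the median gap ratio to the chromosomes was 0.45 and the share of at least 10 kb was 9.02%, against 7.03% of all K562 regions merged the same way. With peaks of at least 500 bp only, the median length ratio was 0.92. Unplaced sequences alone covered 574 kb. Unlocalized sequences alone had 128 peaks and 294 kb, with a length ratio of 0.90. With 5 kb as the limit for long peaks, the share was 8.45%. Covered share of the extent was between 19.4%, for unlocalized sequences alone, and 28.3% under these settings. Leaving out 1 sequence moved the unlocalized share further, to 13.2% without chr9_gl000199_random and 30.1% without chr1_gl000192_random. The number of unlocalized sequences above their parent was 7 under each setting tried for it. Merging touching peaks, and taking length as end minus start, were added after the data were examined and moved no result.

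No paired analysis was possible because the K562 list comes from 1 sample, which also leaves no replicate to leave out. The list has no read counts, and regions under the authors' threshold are not in it.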

Other observations

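Among the other lists of the series, only those from mouse had peaks on such sequences. The random sequences of mm9 differ from those of hg19 and were not compared by position. The E14 DRIP-seq list had 177 of 53859 peaks on 7 such sequences (0.329%), 108 of them on chrY_random with a median of 315 bp. The 3T3 DRIP-seq list had 59 of 35894 peaks on 6 sequences (0.164%), with 1 on chrY_random. In 3T3 DRIPc-seq, which sequences the RNA strand, 197 of 39905 peaks were on 6 sequences (0.494%). Of these, 68 were on chrUn_random, where 3T3 DRIP-seq had 3 and E14 DRIP-seq 4. Median lengths on these sequences were 503 bp in E14 DRIP-seq, 2065 bp in 3T3 DRIP-seq and 761 bp in 3T3 DRIPc-seq. Over all peaks of the same lists they were 1753, 2187 and 1061 bp.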
